A study of Glycine max with 72 samples.

Results

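The 60 soybean genes described here had higher transcript levels after 8 h of imbibition in each of 3 low phytic acid (*lpa*) lines than in the normal phytic acid lines bred beside them. They were taken from 56044 counted genes by their levels in imbibed seeds (stage 2) alone. Levels were expressed as CPM (a gene's count divided by the total of its library and scaled to 1000000 counts) and averaged over the replicates of a line, and 1 CPM was added before ratios were taken. For each gene the log2 ratio of *lpa* to normal was calculated in 3 subsets of lines, and the 60 genes with the highest value of the smallest of their 3 ratios were kept. Glyma.01G216000 was left out by the rule. The values at 8 h therefore chose the genes and are given below as a description without a test, and tests were made only in dry seeds (stage 1) and in seeds with an emerged radicle (stage 3).

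Messenger RNA was sequenced from 8 lines at these 3 stages with 3 replicates of 10 seeds, 72 libraries in all, of seeds germinated in the dark. The Mips subset compares *1mlpa*, which carries the mips1 mutation, with 1MWT, which carries none. In the Mips-MRP subset *3mlpa*, with mips1, mrp-l and mrp-n mutations, is set against 3MWT, with none. The MRP subset sets *2mlpa*, with mrp-l and mrp-n mutations and normal MIPS1, against 3 normal phytic acid lines. These are 2MWT with no mutation, 2MWT-L with normal MRP-L and mutated mrp-n, and 2MWT-N with mutated mrp-l and normal MRP-N. The mutations are point mutations, each genotype is 1 line, and all lines come from crosses that share 1 parent, so other differences between sister lines cannot be told apart from the mutations. The labels of *1mlpa* and 1MWT use short codes that may instead stand for the cultivars crossed, and if so the Mips subset is a comparison of 2 cultivars. The titles of the *3mlpa* and 3MWT libraries are short codes as well and do not spell out the line. Dry seeds were milled whole, and seed coats and radicles were removed from the seeds of the later stages. In such seed samples fewer cells of a type and less RNA per cell cannot be told apart.

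Phytic acid is the main store of phosphorus in seeds. MIPS1 makes the inositol phosphate from which it is built, and the MRP proteins are ABC transporters that move it into the vacuole. A dry seed holds messenger RNAs left from maturation. On imbibition many of these are lost while genes for growth are switched on, and late embryogenesis abundant (LEA) transcripts, which encode protectants of dry tissue, are known examples of the first kind.

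The total of 71 libraries lay between 20295984 and 39759526 counts, with a median of 28412327. Replicate 1 of 2MWT-N at 8 h held 12679 counts and was left out here, so this group has 2 libraries. No 2 libraries held identical counts. Among the mutated genes, MIPS1 (Glyma.11G238800) was called higher in *1mlpa* than 1MWT in dry seeds, with a log2 fold change of 2.496 (FDR = 3.53e-05). Neither MRP gene, which are Glyma.19G169000 (MRP-L) and Glyma.03G167800 (MRP-N), was called in any subset in dry seeds or at emergence. A point mutation need not change a transcript's level, so these genes do not check the labels. The 6 LEA genes and 4 seed storage protein genes that the study names were used as markers of the maturation programme, and none of them is among the 60 genes. Markers of the radicle and seed coat were not analysed here, and the part of such tissues in the results was not tested.

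At 8 h, the 60 genes had a median log2 ratio of 1.19 in *1mlpa* (0.73 to 2.75), 0.97 in *3mlpa* (0.73 to 6.31) and 1.03 in *2mlpa* (0.72 to 1.80). The smallest of the 3 ratios was that of *3mlpa* in 28 genes, of *2mlpa* in 22 and of *1mlpa* in 10. All *lpa* libraries lay above all normal libraries for 57 genes in the Mips subset, 59 in the Mips-MRP subset and 47 in the MRP subset, where 6.31%, 6.64% and 2.3% of the genes with counts did so. Against the single normal lines of the MRP subset, *2mlpa* had the higher mean in 60 of 60 genes each time, with median log2 ratios of 0.95 against 2MWT, 1.28 against 2MWT-L and 0.995 against 2MWT-N. The lowest ratios were 0.47, 0.46 and 0.09, and 49, 57 and 45 of the 60 genes passed the threshold of the list. The rule itself favours a higher level in *2mlpa* here. The last genes inside the list were Glyma.05G224400 and Glyma.15G083200, with smallest ratios of 0.73 and 0.72. The first outside were Glyma.02G244300, whose Arabidopsis homologue is a small heat shock protein, at 0.72 and Glyma.18G210500 at 0.71. The threshold thus cuts a continuous range. With 1 of the 23 libraries of stage 2 left out in turn, 50 to 59 of the 60 genes stayed in the list.

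Levels spanned a wide range. Per length, as TPM (length-corrected values scaled to the same total in every library) at 8 h, Glyma.20G233000 reached 1812 TPM in *2mlpa*, 1492 in *1mlpa* and 1344 in *3mlpa*, against 641 to 961 in the 5 normal lines. At the other end Glyma.11G180800 stood at 5.37 TPM in *1mlpa*, 2.56 in *3mlpa* and 5.02 in *2mlpa*, against 0.08 to 1.24 in the normal lines. The list therefore holds abundant and rare transcripts, and the values of the rare ones rest on few counts. Of the 60 genes 27 could be tied to an Arabidopsis homologue or a family by the annotation of the study, and the others are named only by their identifiers. The genes with an annotation include 4 transcription factor genes, a chaperone and several ubiquitin ligases, and enzymes of abscisic acid (ABA), trehalose, amino acid, mannan and lignan metabolism. Roles given below are those known from Arabidopsis.

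**Figure D1:**
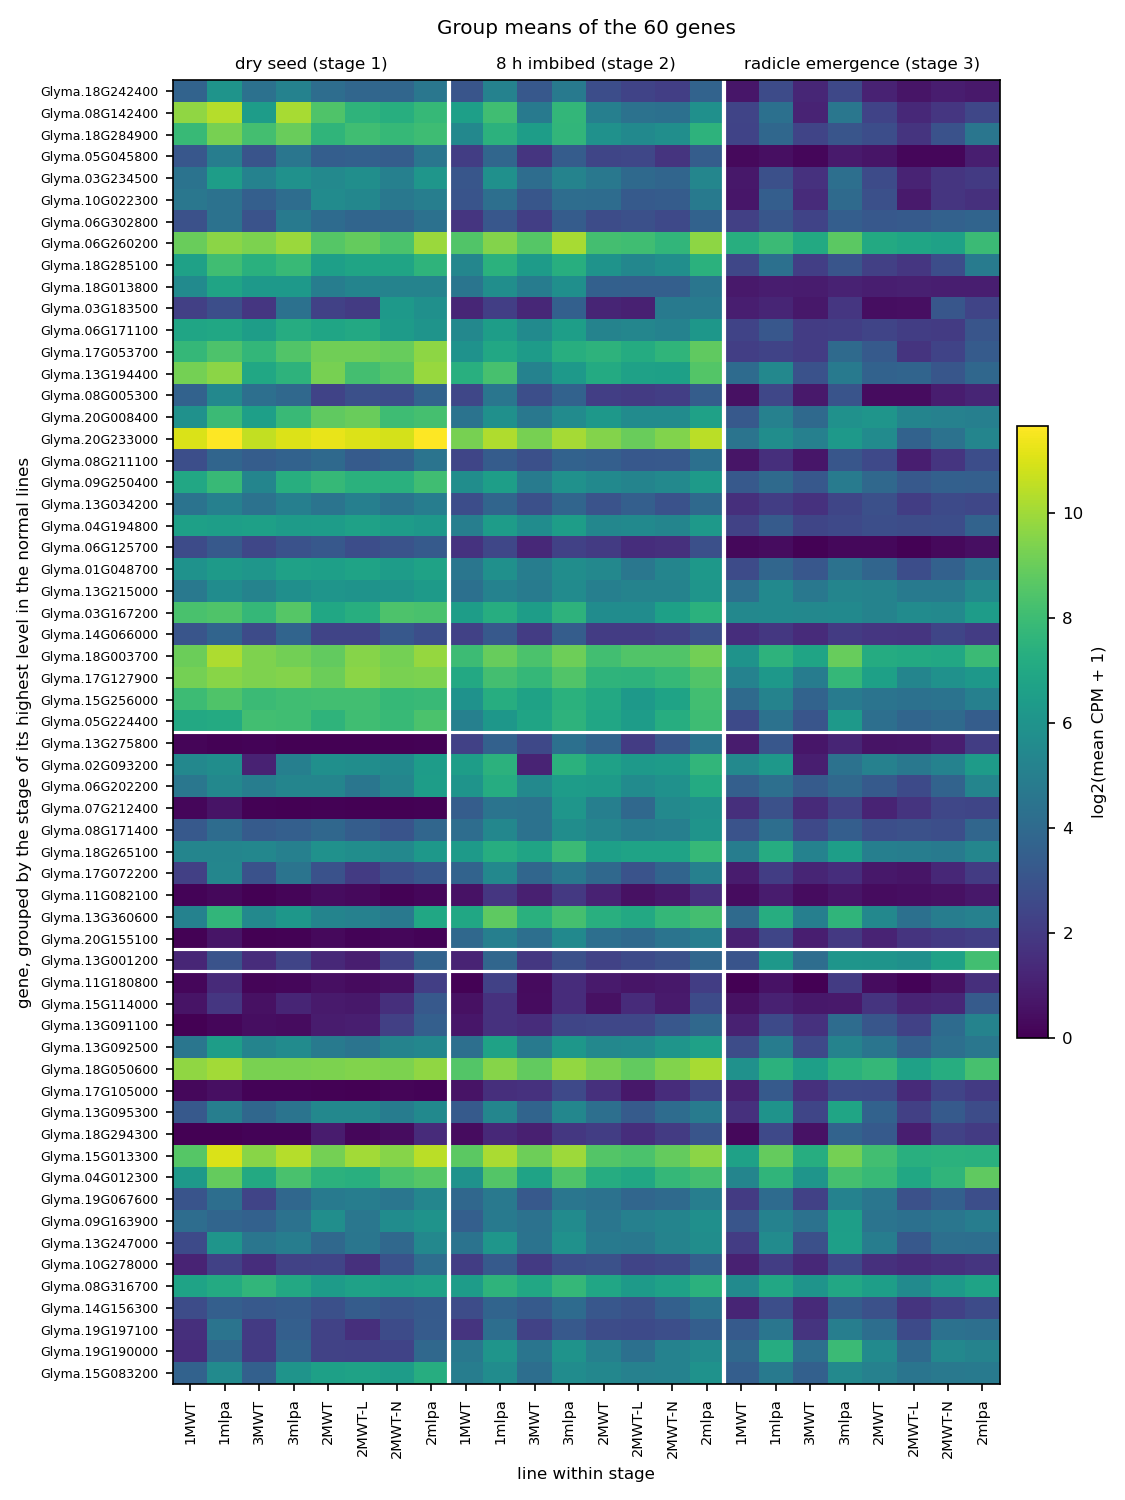
Mean level of each of the 60 genes in the 8 lines at 3 stages, as log2(mean CPM + 1), with genes grouped by the stage of their highest level in the 5 normal lines. The first 30 rows were highest in dry seeds and the next 10 at 8 h, and within the columns of 8 h the *1mlpa*, *3mlpa* and *2mlpa* cells are brighter than those of their normal lines, as the rule requires.

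The course over germination was compared next. The ranking of the stages holds the 8 h levels that the rule used and is a description. The tests compare dry seeds and emergence, but the libraries of 8 h stood in the same fits and entered the scaling, the filter and the estimate of the spread. Of the 60 genes 30 had their highest mean level in dry seeds in all 5 normal lines, which is 50% against 6.12% of 28949 ranked genes. Ranked were the genes whose mean CPM over all groups was at least that of the lowest of the 60. A further 10 were highest at 8 h (16.7% against 13.8% of genes), and 1 at emergence (1.67% against 46.4%). The other 19 peaked at different stages in different lines. This ranking depends on the scaling. The TMM factors with which edgeR scales the library totals, taken here over all 71 libraries, were 0.314 to 0.714 in dry seeds, 0.955 to 1.49 at 8 h and 1.4 to 1.74 at emergence, so that a TMM-scaled level falls more, or rises less, after the dry seed than its CPM. With TMM-scaled CPM, 42 of the 60 genes were highest in dry seeds in all 5 normal lines (24% of genes), 4 at 8 h (10.8%) and 1 at emergence (27.6%). Between dry seeds and emergence, edgeR called 50 of the 60 genes lower and 2 higher in 1MWT, where 24.8% of all tested genes were called lower and 35.7% higher (a call here and below is an FDR under 0.01 with a log2 fold change over 1 in size). In 3MWT 48 fell and 5 rose, against 20.3% and 33.2% of genes, and in 2MWT 47 fell and 4 rose, against 21.9% and 31.6%. The median log2 fold change was -3.63, -3.71 and -3.10 in these 3 lines, where the median over all tested genes was 0.38, 0.44 and 0.35. In CPM without TMM scaling 49, 49 and 45 of the 60 genes were lower at emergence, with median changes of -1.58, -1.81 and -1.49 on the log2(CPM + 1) scale against 1.44, 1.39 and 1.39 over all ranked genes. Stage 1 differs from the others in how seeds were ground and in the tissue kept, and that part of the fall was not tested.

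The fall also took place in the *lpa* lines. In *1mlpa* 48 genes fell and 7 rose, where 25% of genes fell and 37.1% rose. In *3mlpa* 43 fell and 9 rose against 22.1% and 28.8%, and in *2mlpa* 48 fell and 5 rose against 22.5% and 30.9%. The group of 30 genes highest in dry seeds was formed by the levels of the normal lines alone, in these same libraries. That choice favours a steeper fall in the normal lines. The changes of this group below are therefore a description and cannot decide whether the *lpa* lines fell less. The 30 genes highest in dry seeds had a median change to emergence, on the log2(CPM + 1) scale, of -3.52 in 1MWT and -3.08 in *1mlpa*, of -3.04 in 3MWT and -2.56 in *3mlpa*, and of -2.82 in 2MWT, -3.90 in 2MWT-L, -3.21 in 2MWT-N and -3.06 in *2mlpa*. With TMM-scaled CPM the order of the first pair turned, at -4.79 in 1MWT and -4.86 in *1mlpa*, while 3MWT and *3mlpa* had -4.26 and -4.10, and 2MWT, 2MWT-L, 2MWT-N and *2mlpa* -4.30, -5.53, -4.34 and -4.52. From dry seeds to 8 h their median change was -1.37 in 1MWT and -1.0 in *1mlpa*, -1.17 in 3MWT and -0.71 in *3mlpa*, and -1.25 in 2MWT, -1.58 in 2MWT-L, -1.33 in 2MWT-N and -0.64 in *2mlpa*, values that hold the levels the rule used.

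**Figure D2:**
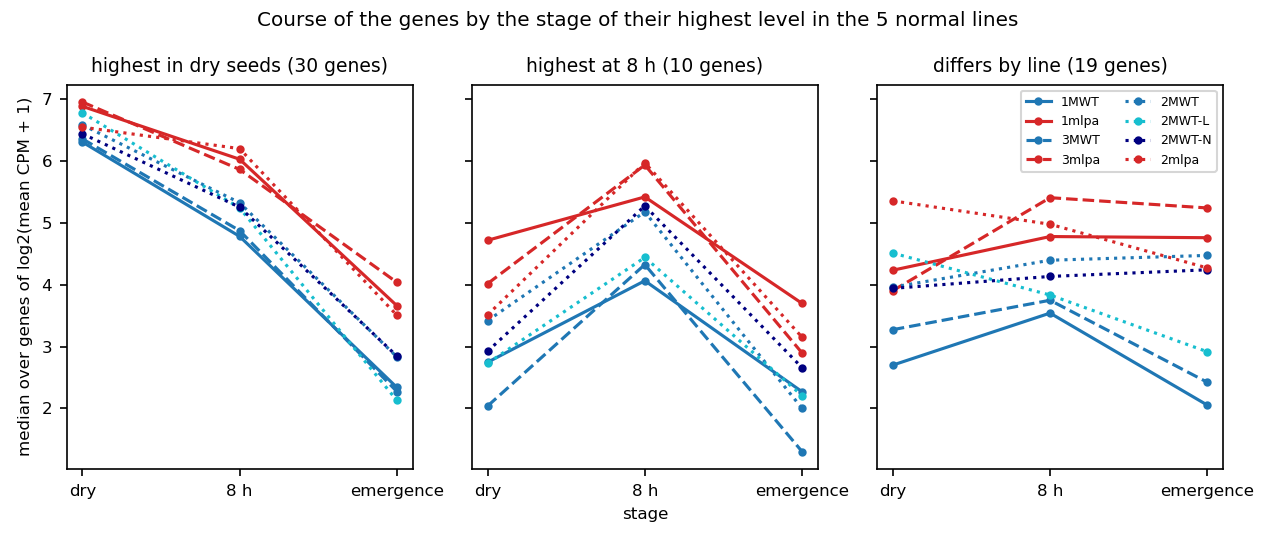
Median over genes of log2(mean CPM + 1) by stage for each line, for the 30 genes highest in dry seeds, the 10 highest at 8 h and the 19 whose highest stage differed between normal lines (red, *lpa* lines; blue shades, normal lines). In the left panel all lines fall from stage to stage, and the 3 *lpa* lines lie above the 5 normal lines at emergence as well as at 8 h. The panels were formed by the levels of the normal lines in these same libraries, so the gaps between lines are a description.

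In the Mips subset, the genes were also higher in *1mlpa* at the stages that did not choose them. In dry seeds edgeR called 27 of the 60 higher in *1mlpa* than 1MWT and 0 lower, where 4.34% of 31682 tested genes were called higher and 4.03% lower. At emergence 38 were called higher and 0 lower, where 4.21% were called higher and 0.641% lower. For the counts of 0 lower, an unadjusted p under 0.05 was reached by 0 genes at both stages and DESeq2 called 0. The median log2 fold change was 1.36 in dry seeds and 1.69 at emergence, against -0.03 and -0.04 over all tested genes, and 58 and 60 of the 60 were above 0. All 3 *1mlpa* libraries lay above all 3 1MWT libraries for 39 genes in dry seeds, where 5.44% of genes did, and for 50 at emergence, where 15.8% did.

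These counts rested in part on single libraries. When 1 library was left out in turn, 21 to 30 genes were called in dry seeds, and 20 of the 27 were called in every fit. At emergence the range was 21 to 41, and 19 of the 38 were called in every fit. Without 1MWT stage 3 replicate 2 the count was 21, without replicate 1 of that group 23, and without *1mlpa* stage 3 replicate 3 it was 25.

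In the Mips-MRP subset more of the genes were called at emergence than in dry seeds. In dry seeds 15 of the 60 genes were called higher in *3mlpa* than 3MWT and 0 lower, where 2.79% of 31307 tested genes were called higher and 1.17% lower. At emergence the call was made for 39 genes, and for 0 lower, where 2.89% were higher and 0.754% lower. An unadjusted p under 0.05 with a lower level was reached by 1 gene in dry seeds and 0 at emergence, and DESeq2 called 0 lower at both. The median log2 fold change was 1.01 in dry seeds and 2.07 at emergence, against 0.15 and -0.07 over all genes, with 54 and 60 genes above 0. The libraries did not overlap, with *3mlpa* above, for 21 genes in dry seeds and 49 at emergence, where 4.36% and 10.3% of genes did so. In dry seeds all *3mlpa* libraries lay below all 3MWT libraries for 2 genes (5.07% of genes), Glyma.13G275800, at 0 in *3mlpa*, and Glyma.08G316700 (-0.33 ± 0.24 SE, FDR = 0.375).

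The dry seed count of *3mlpa* depended on the fit. It was 9 without 3MWT stage 1 replicate 1, 9 without *3mlpa* stage 1 replicate 1 and 27 without *3mlpa* stage 1 replicate 2, and 0 when only the 6 libraries compared entered the fit, where 22 genes reached an unadjusted p under 0.05. At emergence the count was 23 to 42, with 23 without 3MWT stage 3 replicate 1, 24 without replicate 2 of that group and 24 without *3mlpa* stage 3 replicate 3. Of the 15 and 39 calls, 9 and 23 were made in every one of these fits.

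In the MRP subset few of the genes passed the test outside 8 h. A call of this subset needs all 3 comparisons of *2mlpa*, which share its libraries. It was made for 1 gene in dry seeds, Glyma.10G278000, where 0.228% of 31564 genes were called higher and 0.158% lower, and for 1 at emergence, Glyma.08G171400, where 0.0665% and 0.0887% were. None was called lower, at an unadjusted p under 0.05 in all 3 comparisons 0 were lower, and DESeq2 called 0 lower. Against single lines 7 genes were higher against 2MWT in dry seeds (1.12% of genes, with 0.827% lower), 7 against 2MWT-L (4.22%, with 2.47% lower) and 5 against 2MWT-N (1.14%, with 0.931% lower). Against 2MWT-L 1 gene was called lower, Glyma.06G171100 (-1.22 ± 0.25 SE, FDR = 0.0012). At emergence the higher calls were 5 (0.77%, with 0.947% lower), 16 (1.09%, with 0.735% lower) and 2 (0.228%, with 0.225% lower), and none was lower. Those counts at emergence were 0, 3 and 0 with the compared libraries fitted alone and 12, 25 and 5 with DESeq2. In dry seeds they were 7, 16 and 12 and 8, 11 and 6. For the 5 comparisons with 0 lower, at most 4 genes were lower at an unadjusted p under 0.05 and DESeq2 called 0. Against the mean of the 3 normal lines 9 genes were called higher in dry seeds (2.98% of genes, with 1.09% lower) and 18 at emergence (1.25%, with 0.548% lower), 0 were called lower at either, where 1 each had an unadjusted p under 0.05 and DESeq2 called 0, with median log2 fold changes of 0.55 and 0.74 against 0.05 and 0.00 over all genes. Above 0 were 51 and 49 of the 60. Against 2MWT, 2MWT-L and 2MWT-N singly, the median log2 fold changes were 0.45, 0.38 and 0.85 in dry seeds and 0.28, 1.14 and 0.59 at emergence. The median against the mean thus differs from that against each line. The 3 *2mlpa* libraries lay above all 9 normal libraries for 15 genes in dry seeds (1.66% of genes) and 9 at emergence (1.95%).

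**Figure D3:**
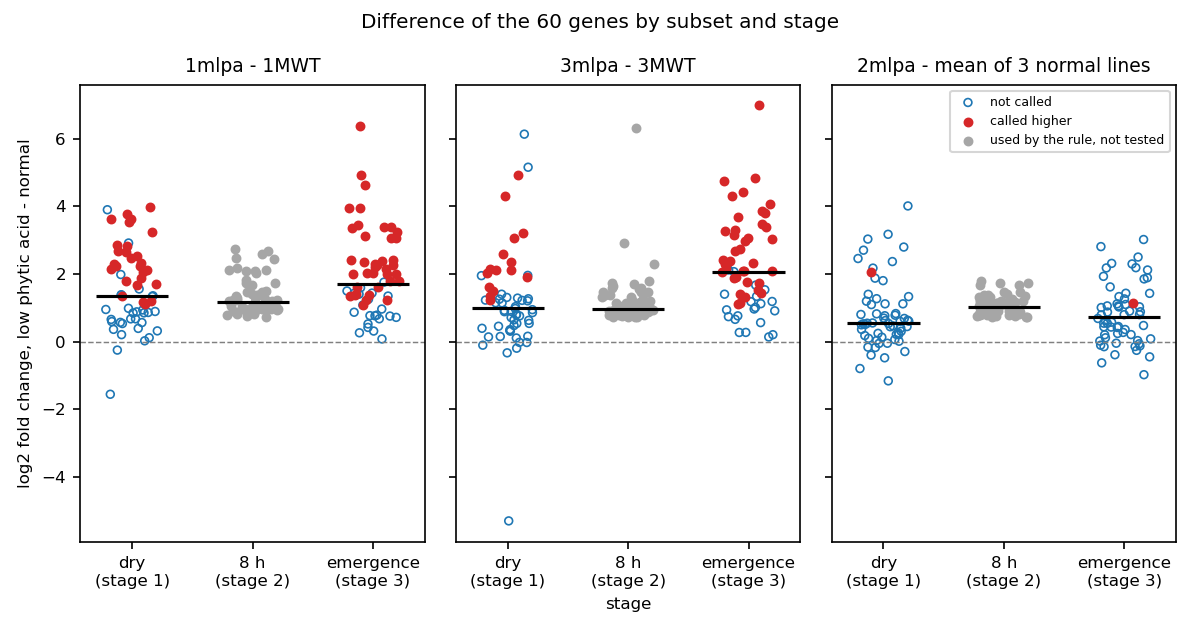
Log2 fold change of each of the 60 genes in the Mips, Mips-MRP and MRP subsets by stage, with filled red points for genes called higher, open blue points for genes not called, grey points for the ratios at 8 h that the rule used, and a bar at the median. In dry seeds 27, 15 and 1 points are red and at emergence 38, 39 and 1, and the medians at emergence are 1.69, 2.07 and 0.74.

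Seen by gene, 28 of the 60 were called higher in no subset in dry seeds, 22 in 1, 9 in 2 and 1 in all 3, where 93.2%, 6.09%, 0.651% and 0.0132% of the 30265 genes tested in all 3 subsets were. At emergence 11 were called in none, 21 in 1, 27 in 2 and 1 in all 3, against 94.5%, 3.83%, 1.64% and 0.00991% of genes. Both *1mlpa* and *3mlpa* were called higher for 10 genes in dry seeds (0.618% of genes) and 28 at emergence (1.64%). A call at either stage in any subset was made for 51 genes (10.9% of genes), and 9 genes had none.

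Because most of the genes fall during germination, their calls were also read against other falling genes, in libraries of the other subset. Of the 6214 genes tested in *1mlpa* that fell in 3MWT, 5.95% were higher in *1mlpa* at emergence, against 3.78% of the other genes. Of the 48 listed genes that fell in 3MWT, 30 were. Of the 7670 genes that fell in 1MWT, 5.4% were higher in *3mlpa* at emergence, against 2.08% of the others, and of the 50 listed genes that fell in 1MWT, 34 were. The median log2 fold change of the falling genes was 0.08 and 0.09, and that of the listed genes among them 1.52 and 2.07.

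The LEA markers, whose 6 genes were counted in every library, moved in the same direction in part. Their summed level at 8 h was 15783 to 19959 CPM in *1mlpa* and 10898 to 11673 in 1MWT, 17161 to 17648 in *3mlpa* and 14048 to 16027 in 3MWT, and 17305 to 20734 in *2mlpa* and 10925 to 16361 in its 3 normal lines. At emergence it was 1340 to 1673 CPM in *1mlpa* and 374 to 1008 in 1MWT, 2018 to 2822 in *3mlpa* and 1172 to 1541 in 3MWT, and 341 to 1166 in *2mlpa* and 289 to 1259 in its normal lines. The sums did not overlap between *lpa* and normal lines at 8 h in any subset, and at emergence they overlapped in the MRP subset. The study singled out the LEA genes among those that changed in *1mlpa* and *3mlpa*, and the storage protein genes among those that changed in *2mlpa*, in these same libraries, so their direction there is not independent evidence. Of the 6 LEA genes, 2 were called higher at emergence in *1mlpa* and 2 in *3mlpa*, with median log2 fold changes of 1.45 and 1.14, and 5 in each reached an unadjusted p under 0.05. In dry seeds 2 were called in *1mlpa* (median 0.44) and 0 in *3mlpa* (-0.14). In *2mlpa* 0 were called at either stage (0.35 and 0.39). For these counts of 0, no LEA gene was higher at an unadjusted p under 0.05 and DESeq2 called 0. In *3mlpa* dry seeds 1 was lower at an unadjusted p under 0.05. In dry seeds the sums overlapped in all 3 subsets. They were 20716 to 25462 CPM in *1mlpa* and 13804 to 26401 in 1MWT. In the MRP subset they were 19895 to 25239 in *2mlpa* and 15140 to 20432 in its normal lines. The mean was lower in *3mlpa*, at 11443 to 25530 (mean 16933) against 25146 to 30616 (mean 27581) in 3MWT. The part of a slower loss of maturation transcripts in the levels of the 60 genes was not tested. The summed level of the 4 storage protein genes was 4844 to 6350 CPM in *2mlpa* at 8 h and 427 to 2122 in its normal lines, but 140 to 236 in *1mlpa* and 180 to 350 in 1MWT. In *3mlpa* it was 294 to 476 CPM and in 3MWT 266 to 326, which overlapped. The call was made for 3 of the 4 in *2mlpa* dry seeds and 1 in *3mlpa* at emergence. In the other 4 tests 0 were called by edgeR, with 3 higher at an unadjusted p under 0.05 over these tests and 1 called by DESeq2. In *1mlpa*, where 3 of the 4 genes were tested, 1 was lower at an unadjusted p under 0.05 in dry seeds and 1 at emergence.

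Regulators come first. Glyma.08G142400 encodes a WRKY transcription factor, a family that acts in defence, ABA and seed dormancy. At 8 h it was counted at 312, 218 and 286 CPM in *1mlpa* and 143, 48.98 and 94.8 in 1MWT, at 186, 217 and 238 in *3mlpa* and 29.2, 24.5 and 28.2 in 3MWT, and at 59.4, 50.6 and 59.4 in *2mlpa*. The 8 libraries of the normal MRP lines lay between 11.1 and 39.7 CPM. No *lpa* library overlapped its normal lines at this stage. At emergence the gene stood at 18.3, 20.3 and 17.8 CPM in *1mlpa* and 2.21, 1.68 and 8.68 in 1MWT, a log2 fold change of 2.16 ± 0.52 (SE, FDR = 0.00952), and at 34.2, 12.2 and 24.7 in *3mlpa* and 0.71, 1.97 and 1.12 in 3MWT, 4.31 ± 0.59 (SE, FDR = 9.25e-05). In dry seeds 3MWT held 73.8, 64.5 and 119 CPM and *3mlpa* 1434, 468 and 1515, 4.32 ± 0.57 (SE, FDR = 0.000161), while 1MWT and *1mlpa* held 983, 616 and 957 and 1669, 1127 and 1201. In dry seeds 3MWT lay below 1MWT. The gene fell in every line, with a log2 fold change to emergence of -9.33 ± 0.70 (SE, FDR = 5.92e-10) in 1MWT.

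Glyma.19G190000 belongs to the Trihelix family of light and stress regulators. It was called higher in *1mlpa* and *3mlpa* at both stages tested. At emergence *1mlpa* held 124, 149 and 172 CPM and 1MWT 2.29, 24.9 and 16.1, 3.40 ± 0.53 (SE, FDR = 0.000309). For *3mlpa* and 3MWT the values were 239, 242 and 254 and 24.01, 13.1 and 17.5, 3.88 ± 0.50 (SE, FDR = 5.79e-05). The groups did not overlap in either pair. In *2mlpa* it stood at 56.6, 27.2 and 23.5 CPM, inside the range of its normal lines, whose 3 libraries of 2MWT held 20.01, 22.7 and 98.3. In dry seeds the log2 fold changes were 3.23 ± 0.56 (SE, FDR = 0.000463) in *1mlpa* and 2.14 ± 0.49 (SE, FDR = 0.00876) in *3mlpa*, where *3mlpa* libraries ranged from 4.53 to 27.1 CPM.

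A heat stress transcription factor gene (HSF family, activators of chaperone genes), Glyma.17G053700, was at 464, 383 and 502 CPM in *2mlpa* at 8 h, above the range of 123.2 to 254 in its normal lines. At emergence it was called higher in *3mlpa* alone, at 9.87, 18.1 and 18.2 CPM against 2.52, 4.21 and 3.01 in 3MWT, 2.38 ± 0.34 (SE, FDR = 0.000154), and was not called in *1mlpa* (0.26 ± 0.33 SE, FDR = 0.695). Glyma.05G224400 encodes a CCCH zinc finger protein, a family of RNA-binding regulators. Its level in *3mlpa* at emergence was 55.96, 100.3 and 69.6 CPM against 10.9, 6.01 and 5.41 in 3MWT, 3.47 ± 0.33 (SE, FDR = 2.16e-06), and in *1mlpa* it was 12.8, 9.73 and 37.7 against 3.07, 6.34 and 5.79, 2.04 ± 0.41 (SE, FDR = 0.00243). In dry seeds neither pair differed beyond its spread, with log2 fold changes of 0.14 ± 0.29 (SE, FDR = 0.794) and 0.39 ± 0.38 (SE, FDR = 0.492). With libraries left out one at a time, calls were lost for Glyma.08G142400 at emergence in *1mlpa* in all but 6 of 18 fits (1.78 to 3.29 over all fits), Glyma.19G190000 in dry seeds in *3mlpa* in all but 2 of 18 fits (1.46 to 2.66 over all fits) and Glyma.05G224400 at emergence in *1mlpa* without 1MWT stage 3 replicates 1 and 2 or *1mlpa* stage 3 replicate 3 (1.14 to 2.21), with each named library left out alone and the log2 fold changes of those fits in parentheses.

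Protein folding and turnover formed a second group. Glyma.02G093200 is annotated as the chaperone HSP70-4. It differed from the other genes in that 3MWT nearly lacked its transcript at every stage, with 2.68, 0.73 and 0.18 CPM in dry seeds, 1.1, 1.4 and 1.22 at 8 h and 0.16, 2.51 and 0.19 at emergence. The other normal lines held 66.7 to 111 CPM at 8 h, and *1mlpa*, *3mlpa* and *2mlpa* held 159, 165 and 221, 221, 146 and 163 and 203, 196 and 203. The ratio of 6.31 in the Mips-MRP subset at 8 h came with this low level in 3MWT, and the *3mlpa* libraries overlapped those of the other *lpa* lines. The gap was called in dry seeds, at 4.92 ± 0.81 (SE, FDR = 0.00105), and at emergence, at 4.43 ± 0.78 (SE, FDR = 0.00124). In *1mlpa* the log2 fold change was 0.60 ± 0.29 (SE, FDR = 0.145) in dry seeds and 0.79 ± 0.29 (SE, FDR = 0.087) at emergence, and against the mean of the normal MRP lines it was 1.43 ± 0.25 (SE, FDR = 0.000466) at emergence in *2mlpa*. HSP70 genes form a large family, and reads shared with near copies were not counted.

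Glyma.18G242400, whose homologue has a RING-type zinc finger as many ubiquitin ligases do, was called higher in *1mlpa* and *3mlpa* at both stages. In dry seeds it was at 64.6, 60.3 and 71.1 CPM in *1mlpa* and 10.7, 12.6 and 12.5 in 1MWT, 2.68 ± 0.23 (SE, FDR = 6.95e-07), and at 28.4, 43.9 and 33.4 in *3mlpa* and 22.7, 12.8 and 23.2 in 3MWT, 1.22 ± 0.26 (SE, FDR = 0.00557). At emergence the values were 7.81, 4.11 and 4.3 against 0.55, 0.68 and 0.69, 3.08 ± 0.27 (SE, FDR = 2.12e-06), and 5.18, 4.9 and 4.26 against 1.78, 1.07 and 1.38, 1.88 ± 0.28 (SE, FDR = 0.000259). The groups were apart in all 4 comparisons. In *2mlpa* dry seeds held 23.04, 23.7 and 24.6 CPM, above the 11.1 to 21.4 of the normal lines. The fold change of 0.64 ± 0.30 (SE, FDR = 0.141) against their mean did not pass, and at emergence *2mlpa* lay within the normal range.

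Glyma.01G048700 is annotated as MPSR1, a ubiquitin ligase that marks misfolded proteins. It was called higher at emergence in *1mlpa*, with 7.22, 21.2 and 11.8 CPM against 3.77, 4.99 and 7.13, 1.36 ± 0.33 (SE, FDR = 0.00902), and in *3mlpa*, with 17.04, 15.5 and 27.2 against 7.18, 9.84 and 6.94, 1.45 ± 0.33 (SE, FDR = 0.00974), both close to the threshold. Glyma.06G302800 encodes a homologue of the translation initiation factor SUI1. It was called higher in *1mlpa* and *3mlpa* at both stages, at 32.2, 21.03 and 25.7 CPM in *3mlpa* dry seeds against 7.81, 4.97 and 8.24 in 3MWT, 2.36 ± 0.31 (SE, FDR = 0.000145), and 17.1, 20.3 and 22.6 in *1mlpa* against 8.28, 5.1 and 6.001, 1.78 ± 0.24 (SE, FDR = 4.08e-05). Glyma.18G013800, another RING domain protein, fell to 0.32 to 1.64 CPM in all lines at emergence and had no call, with a log2 fold change of 1.39 ± 0.45 (SE, FDR = 0.0314) in *1mlpa* dry seeds. The calls lost when a single library was left out were those of Glyma.18G242400 in dry seeds in *3mlpa* without 3MWT stage 1 replicates 1 and 2 or *3mlpa* stage 1 replicates 1 and 3 (0.91 to 1.34), Glyma.01G048700 at emergence in *1mlpa* in all but 7 of 18 fits (0.88 to 1.66 over all fits) and Glyma.01G048700 at emergence in *3mlpa* in all but 6 of 18 fits (1.10 to 1.64 over all fits). Others lost were Glyma.06G302800 at emergence in *1mlpa* without 1MWT stage 3 replicates 1, 2 and 3 or *1mlpa* stage 3 replicates 1 and 3 (0.99 to 1.14) and Glyma.06G302800 at emergence in *3mlpa* without 3MWT stage 3 replicates 1, 2 and 3 or *3mlpa* stage 3 replicates 1 and 3 (1.31 to 1.45).

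Hormone and sugar signalling were represented by a few genes. Glyma.11G180800 is a homologue of ABA2, which makes ABA aldehyde in ABA synthesis. It was rare, and no count was found in the 3 libraries of 1MWT at emergence, where *1mlpa* held 0.45, 0.12 and 0.89 CPM. Against a floor of 3 counts over the 1MWT group, *1mlpa* was at least 17.4-fold higher (FDR = 0.00736 in edgeR). In *3mlpa* at emergence it stood at 3.32, 3.39 and 2.69 CPM against 0, 0 and 0.064 in 3MWT (FDR = 2.84e-05). From 253 counts against 2 in the summed libraries, that is a ratio of 153 with an exact 95% interval of 42 to 1270, which covers counting error only. In dry seeds *1mlpa* held 0.92, 3.29 and 0.71 CPM and 1MWT 0.15, 0.040 and 0.26, 3.53 ± 0.80 (SE, FDR = 0.00448), while *3mlpa* and 3MWT were both low and did not differ beyond their spread (0.86 ± 0.88 SE, FDR = 0.548). In *2mlpa* the levels were 5.37, 3.52 and 1.46 CPM in dry seeds and 0.25, 1.73 and 3.94 at emergence, with fold changes against the mean of the normal lines of 3.18 ± 0.63 (SE, FDR = 0.000908) and 3.02 ± 0.67 (SE, FDR = 0.00475). All the *2mlpa* libraries of dry seeds lay above the 0 to 0.79 CPM of the normal lines.

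Glyma.13G092500 is a homologue of TPS11, of a class of trehalose phosphate synthase-like proteins tied to sugar status. In dry seeds it was at 87.6, 90.7 and 88.8 CPM in *1mlpa* and 10.5, 35.7 and 23.4 in 1MWT, 2.25 ± 0.27 (SE, FDR = 1.51e-05), but at 26.6, 101 and 18.2 in *3mlpa* and 28.02, 30.8 and 52.98 in 3MWT, 0.46 ± 0.35 (SE, FDR = 0.398). At emergence both pairs were apart, with 20.9, 35.2 and 30.01 CPM in *1mlpa* against 4.96, 5.74 and 5.71, 2.42 ± 0.27 (SE, FDR = 3.28e-05), and 33.4, 28.4 and 48.5 in *3mlpa* against 6.37, 3.5 and 4.77, 3.05 ± 0.38 (SE, FDR = 3.57e-05). *2mlpa* lay within the range of its normal lines at emergence, which was 4.97 to 43.1 CPM.

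Glyma.13G360600 is a homologue of the KMD type of Kelch F-box proteins, which mark cytokinin response regulators and an enzyme of phenylpropanoid synthesis for breakdown. Its dry seed level was 244, 171 and 194 CPM in *1mlpa* against 21.5, 39.2 and 45.4, 2.83 ± 0.45 (SE, FDR = 0.000202), and 164, 148 and 54.2 in *2mlpa* against 22.3 to 48.2 in the normal lines, 1.88 ± 0.30 (SE, FDR = 8.57e-05) against their mean. At emergence it was called in *1mlpa* (3.39 ± 0.46 SE, FDR = 0.000106) and *3mlpa* (2.75 ± 0.40 SE, FDR = 0.000188), and the *2mlpa* libraries (41.9, 27.7 and 30.7 CPM) fell back into the normal range of 11.5 to 69.9. Glyma.13G215000, a homologue of BAM9, a beta-amylase-like protein of starch breakdown, was called higher in *1mlpa* at both stages (1.19 ± 0.21 SE, FDR = 0.000585 and 1.37 ± 0.21 SE, FDR = 0.000327). Leaving out each library in turn ended the calls of Glyma.11G180800 in dry seeds in *1mlpa* without 1MWT stage 1 replicates 2 and 3 or *1mlpa* stage 1 replicate 2 (2.66 to 4.17) and Glyma.11G180800 at emergence in *1mlpa* in all but 11 of 18 fits.

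**Figure D4:**
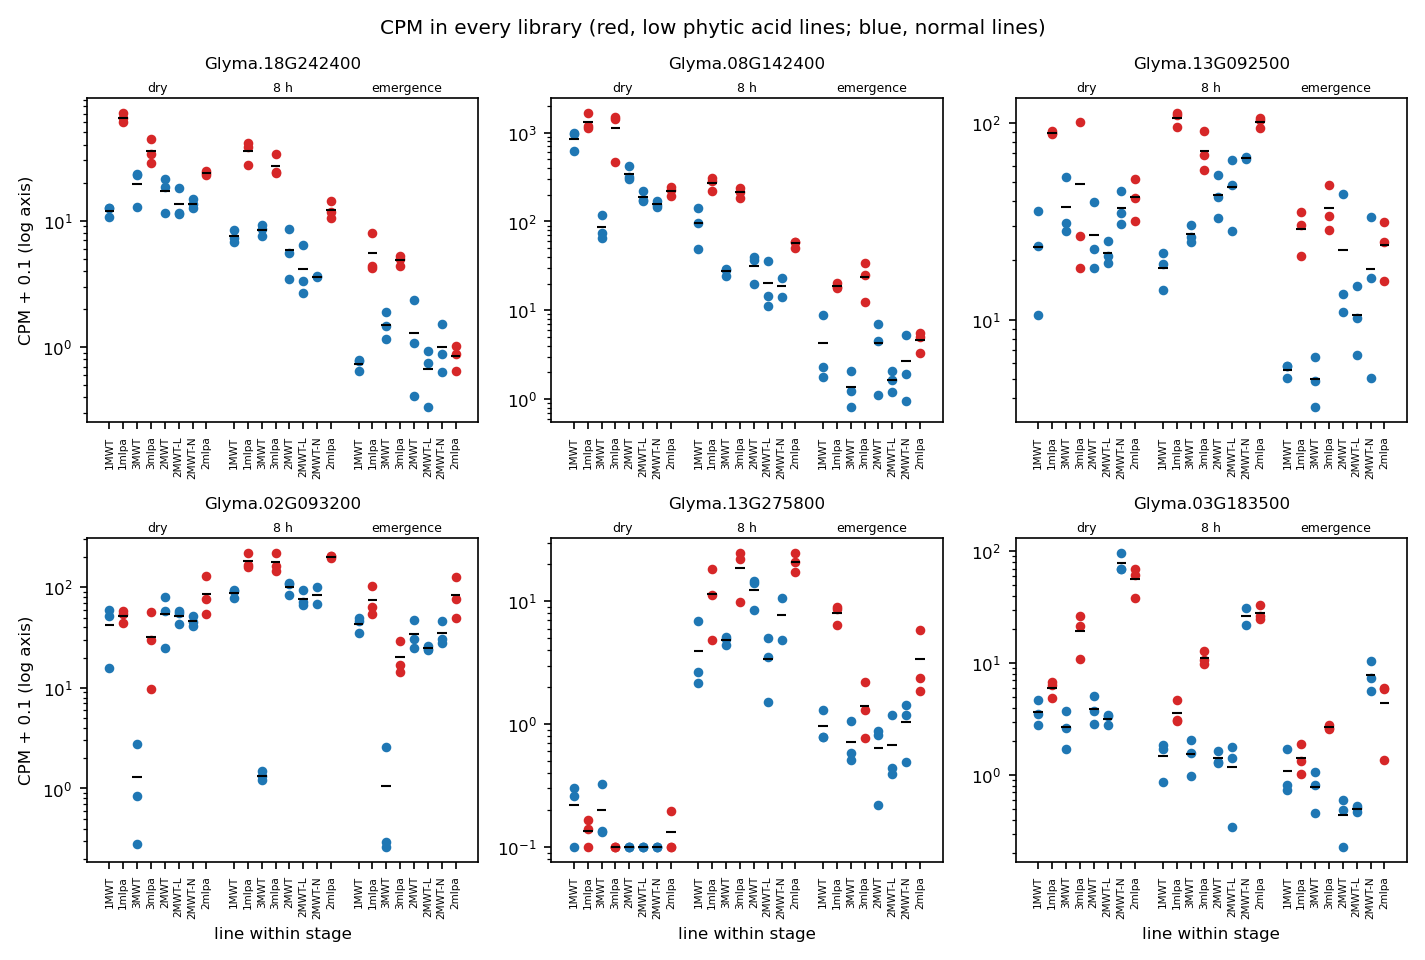
Level of 6 of the genes in every library, as CPM + 0.1 on a log axis, by line within stage, with a bar at the group mean (red, *lpa* lines; blue, normal lines; the near-empty library is not drawn). Glyma.02G093200 lies between 0.16 and 2.68 CPM in 3MWT, Glyma.03G183500 is high in 2MWT-N as well as *2mlpa*, and Glyma.13G275800 is close to 0 in all dry seeds.

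Among enzymes, Glyma.13G001200, a homologue of methionine gamma-lyase, which breaks down methionine, was the only gene highest at emergence in all 5 normal lines. It was at 58.5, 74.2 and 86.98 CPM in *1mlpa* at that stage against 5.79, 9.09 and 6.85 in 1MWT, 3.37 ± 0.36 (SE, FDR = 2.54e-05), and at 46.2, 58.4 and 95.2 in *3mlpa* against 15.95, 15.7 and 20.1, 2.09 ± 0.39 (SE, FDR = 0.00196). In *2mlpa* it reached 94.5, 351 and 391 CPM and overlapped the 36.9 to 189 of its normal lines. In dry seeds the call in *1mlpa* was 2.54 ± 0.39 (SE, FDR = 0.000161). Glyma.04G012300, a homologue of phenylcoumaran benzylic ether reductase of lignan metabolism, was called in *1mlpa* and *3mlpa* at both stages. At emergence *1mlpa* held 189.6, 188 and 211 CPM and 1MWT 36.3, 42.4 and 35.5, 2.39 ± 0.22 (SE, FDR = 3.22e-06), and *3mlpa* held 285, 219.7 and 403 and 3MWT 66.5, 67.3 and 69.2, 2.29 ± 0.28 (SE, FDR = 3.5e-05). The replicates of both normal lines were close together. The dry seed fold changes were 2.87 ± 0.22 (SE, FDR = 2.03e-07) and 1.61 ± 0.28 (SE, FDR = 0.00145).

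Glyma.03G234500 belongs to the alpha/beta hydrolases. At emergence it was at 6.25, 6.13 and 6.37 CPM in *1mlpa* and 0.23, 0.11 and 1.7 in 1MWT, 3.14 ± 0.57 (SE, FDR = 0.00111), and at 23.1, 17.1 and 14.8 in *3mlpa* and 1.59, 3.2 and 1.76 in 3MWT, 3.16 ± 0.42 (SE, FDR = 6.38e-05), but at 3.95, 3.06 and 2.01 in *2mlpa*, within the range of its normal lines. Glyma.18G294300, a glutamine amidotransferase-like gene, was at 0 to 3.45 CPM in dry seeds and spread widely at emergence, with 0.97, 10.9 and 2.86 CPM in *1mlpa* and 0, 0.39 and 0.23 in 1MWT, 4.64 ± 0.92 (SE, FDR = 0.00295). Its *3mlpa* libraries held 17.3, 3.86 and 15.6 against 0.097, 0.60 and 0.74 in 3MWT, 4.76 ± 0.93 (SE, FDR = 0.00289). The groups were apart in both pairs. Among these genes, omission of single libraries ended the calls of Glyma.13G001200 at emergence in *3mlpa* without 3MWT stage 3 replicates 1 and 2 or *3mlpa* stage 3 replicate 3 (1.69 to 2.04), Glyma.03G234500 at emergence in *1mlpa* without 1MWT stage 3 replicate 1 (2.71) and Glyma.18G294300 at emergence in *1mlpa* without 1MWT stage 3 replicates 1, 2 and 3 or *1mlpa* stage 3 replicate 2 (3.31 to 5.36). The same applied to Glyma.18G294300 at emergence in *3mlpa* without 3MWT stage 3 replicates 1, 2 and 3 or *3mlpa* stage 3 replicate 3 (4.29 to 5.17).

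Genes of oil bodies and defence were also on the list. Glyma.09G250400, a homologue of SEIPIN1, which shapes lipid droplets, was called in *3mlpa* at emergence (1.91 ± 0.38 SE, FDR = 0.00317) and in dry seeds of *1mlpa* (244, 236 and 218 CPM against 136, 102 and 136, 1.10 ± 0.26 SE, FDR = 0.00446) and *3mlpa* (179, 89.3 and 213 against 33.9, 39.4 and 42.7, 2.60 ± 0.38 SE, FDR = 0.000463). Glyma.08G005300, a homologue of plant defensin PDF2.5, differed in *1mlpa* at both stages and in *3mlpa* only at emergence by the test of each stage. Its dry seed values were 39.5, 35.98 and 51.6 CPM in *1mlpa* against 11.9, 11.9 and 11.01, 2.07 ± 0.44 (SE, FDR = 0.00227), and 10.6, 18.96 and 13.9 in *3mlpa* against 21.6, 24.03 and 9.8, -0.02 ± 0.37 (SE, FDR = 0.996). At emergence *3mlpa* held 5.07, 6.45 and 10.2 and 3MWT 0.97, 0.87 and 0.42, 3.39 ± 0.43 (SE, FDR = 4.94e-05), and *1mlpa* differed from 1MWT by 3.44 ± 0.55 (SE, FDR = 0.00044). Glyma.18G003700 is a homologue of CYS2, a phytocystatin that inhibits cysteine proteases. It was called only in *3mlpa* at emergence, at 408, 375 and 689 CPM against 88.95, 136 and 112, 2.26 ± 0.46 (SE, FDR = 0.00382). Glyma.04G194800, a homologue of the calmodulin-like CML38, was called only in *1mlpa* at emergence (1.23 ± 0.24 SE, FDR = 0.00222), and Glyma.15G256000, of a family of small stress-linked CYSTM proteins, in both *1mlpa* (1.24 ± 0.25 SE, FDR = 0.00296) and *3mlpa* (1.31 ± 0.27 SE, FDR = 0.0039) at that stage. Omission of 1 library at a time ended the calls of Glyma.09G250400 in dry seeds in *1mlpa* without 1MWT stage 1 replicates 2 and 3 or *1mlpa* stage 1 replicate 1 (0.90 to 1.09), Glyma.09G250400 at emergence in *3mlpa* without 3MWT stage 3 replicates 1, 2 and 3 or *3mlpa* stage 3 replicates 2 and 3 (1.75 to 1.95) and Glyma.08G005300 in dry seeds in *1mlpa* without 1MWT stage 1 replicates 2 and 3 (1.97 to 1.99). Lost as well were Glyma.18G003700 at emergence in *3mlpa* without 3MWT stage 3 replicates 1, 2 and 3 or *3mlpa* stage 3 replicate 3 (1.87 to 2.44), Glyma.04G194800 at emergence in *1mlpa* without 1MWT stage 3 replicates 2 and 3 or *1mlpa* stage 3 replicates 2 and 3 (1.02 to 1.18) and Glyma.15G256000 at emergence in *1mlpa* without 1MWT stage 3 replicates 2 and 3 or *1mlpa* stage 3 replicates 2 and 3 (1.09 to 1.23). The list of lost calls also held Glyma.15G256000 at emergence in *3mlpa* without 3MWT stage 3 replicates 1, 2 and 3 or *3mlpa* stage 3 replicate 3 (1.11 to 1.34).

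Genes known only by a homologue of unknown role or a conserved domain followed. Glyma.05G045800, homologous to AT5G63350, was called in dry seeds in both *1mlpa* (2.15 ± 0.36 SE, FDR = 0.000322) and *3mlpa* (2.12 ± 0.36 SE, FDR = 0.0014), and at emergence in *3mlpa* (2.42 ± 0.53 SE, FDR = 0.00705), where it was at most 1.73 CPM in every line. Glyma.15G114000, with a domain of unknown function, was at 5.2, 5.92 and 5.14 CPM in *2mlpa* at 8 h and 0.19 to 3.13 in its normal lines, and was called in *1mlpa* dry seeds (2.47 ± 0.49 SE, FDR = 0.00133). Its *2mlpa* levels at emergence spread from 1.75 to 13.8 CPM. Glyma.17G127900, homologous to AT5G50360, was called in *3mlpa* at emergence, at 133, 205 and 315 CPM against 31.8, 26.7 and 27.7, 3.07 ± 0.33 (SE, FDR = 7.46e-06). In fits without 1 library the call was lost for Glyma.05G045800 at emergence in *3mlpa* in all but 10 of 18 fits (2.07 to 2.63 over all fits).

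Several genes without annotation had large fold changes at emergence. Glyma.13G095300 was called in *1mlpa* and *3mlpa* at emergence with 43.02, 55.1 and 91.4 CPM in *1mlpa* against 1.31, 1.995 and 3.02, 4.93 ± 0.36 (SE, FDR = 8.64e-07), and 121, 70.5 and 153 in *3mlpa* against 2.65, 4.54 and 5.89, 4.84 ± 0.52 (SE, FDR = 7.75e-06). In *2mlpa* it stood at 6.91, 5.38 and 4.29, within its normal lines. From dry seeds to emergence it fell in 1MWT (-3.64 ± 0.35 SE, FDR = 1.83e-08) and 3MWT (-3.10 ± 0.48 SE, FDR = 1.87e-05), whereas the change in *1mlpa* (-0.81 ± 0.30 SE, FDR = 0.0204) and *3mlpa* (0.60 ± 0.44 SE, FDR = 0.238) was not called. Glyma.13G247000 followed, at 34.2, 45.1 and 64.4 in *1mlpa* against 0.58, 3.92 and 4.95, 3.97 ± 0.52 (SE, FDR = 8.13e-05), and 93.02, 93.3 and 102 in *3mlpa* against 7.67, 6.61 and 4.54, 4.06 ± 0.53 (SE, FDR = 5.79e-05). For Glyma.10G022300 dry seeds of *1mlpa* and 1MWT overlapped (0.03 ± 0.50 SE, FDR = 0.989), and at emergence *1mlpa* held 4.61, 11.1 and 14.6 CPM against 0.35, 0.21 and 1.34, 3.95 ± 0.62 (SE, FDR = 0.000373). In *3mlpa* at emergence it was at 12.8, 13.8 and 19.7 against 1.17, 1.94 and 2.08, 3.28 ± 0.48 (SE, FDR = 0.0002).

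Glyma.19G067600 was called at emergence in *1mlpa* (2.41 ± 0.47 SE, FDR = 0.00184) and in *3mlpa* (3.29 ± 0.35 SE, FDR = 7.72e-06), with its 3 *3mlpa* libraries at 30.3, 34.4 and 38.9 CPM and those of 3MWT at 3.07, 4.59 and 3.84. Glyma.09G163900 (2.26 ± 0.45 SE, FDR = 0.00253 and 2.32 ± 0.50 SE, FDR = 0.00629) and Glyma.13G091100 (2.25 ± 0.47 SE, FDR = 0.00345 and 2.98 ± 0.66 SE, FDR = 0.00711) were called in the same 2 lines at that stage. Glyma.15G083200 was called in dry seeds in *1mlpa* (2.24 ± 0.34 SE, FDR = 0.000141) and *3mlpa* (3.08 ± 0.44 SE, FDR = 0.000372). Its dry seed levels were 57.2, 43.8 and 90.2 CPM in *3mlpa* and 6.36, 14.9 and 11.5 in 3MWT, yet 72.7 to 118 in the normal MRP lines, so only 1 *3mlpa* library reached the range of those normal lines. At emergence it was called in *3mlpa* (2.14 ± 0.42 SE, FDR = 0.00317). When 1 library was omitted the calls were lost of Glyma.19G067600 at emergence in *1mlpa* without 1MWT stage 3 replicates 1 and 2 or *1mlpa* stage 3 replicate 3 (2.10 to 2.38), Glyma.09G163900 at emergence in *1mlpa* without 1MWT stage 3 replicates 1 and 2 or *1mlpa* stage 3 replicate 3 (2.10 to 2.32) and Glyma.09G163900 at emergence in *3mlpa* without 3MWT stage 3 replicates 1, 2 and 3 or *3mlpa* stage 3 replicates 1 and 3 (2.07 to 2.44). To these came Glyma.13G091100 at emergence in *1mlpa* without 1MWT stage 3 replicates 1, 2 and 3 or *1mlpa* stage 3 replicates 2 and 3 (1.94 to 2.34), Glyma.13G091100 at emergence in *3mlpa* in all but 8 of 18 fits (2.20 to 3.40 over all fits) and Glyma.15G083200 at emergence in *3mlpa* without 3MWT stage 3 replicates 1, 2 and 3 or *3mlpa* stage 3 replicates 2 and 3 (1.91 to 2.24).

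The 2 genes called in *2mlpa* were Glyma.10G278000 and Glyma.08G171400, neither annotated. In dry seeds Glyma.10G278000 was at 23.7, 16.4 and 10.7 CPM in *2mlpa*, 4.46, 5.45 and 2.87 in 2MWT, 2.08, 1.73 and 2.52 in 2MWT-L and 7.74, 4.31 and 7.96 in 2MWT-N, 2.05 ± 0.25 (SE, FDR = 1.97e-06) against their mean. It was also called there in *1mlpa* (1.89 ± 0.36 SE, FDR = 0.00109) and *3mlpa* (1.36 ± 0.32 SE, FDR = 0.00982), which makes it the only gene called in all 3 subsets in dry seeds, and at emergence in *1mlpa* (1.61 ± 0.36 SE, FDR = 0.00545) and *3mlpa* (1.72 ± 0.32 SE, FDR = 0.00163). At emergence Glyma.08G171400 was at 13.9, 11.97 and 14.4 CPM in *2mlpa* and 4.51 to 7.36 in its 9 normal libraries, 1.13 ± 0.16 (SE, FDR = 2.8e-05) against the mean of the normal lines. The largest FDR of the 3 comparisons that make this call was 0.00159. The fold change of Glyma.08G171400 at emergence was 1.39 ± 0.27 (SE, FDR = 0.002) in *1mlpa* and 1.14 ± 0.25 (SE, FDR = 0.00802) in *3mlpa*. Its groups were apart in all 3 subsets. Single omitted libraries ended the calls of Glyma.10G278000 in dry seeds in *2mlpa* without 2MWT stage 1 replicate 3 or 2MWT-N stage 1 replicates 1 and 2 or *2mlpa* stage 1 replicates 1 and 2 (1.74 to 2.10), Glyma.10G278000 in dry seeds in *3mlpa* in all but 3 of 18 fits (1.14 to 1.56 over all fits) and Glyma.10G278000 at emergence in *1mlpa* without 1MWT stage 3 replicates 1 and 2 or *1mlpa* stage 3 replicates 1, 2 and 3 (1.42 to 1.69). Further lost calls were Glyma.10G278000 at emergence in *3mlpa* without 3MWT stage 3 replicates 1 and 2 (1.48 to 1.78), Glyma.08G171400 at emergence in *2mlpa* without 2MWT stage 3 replicate 2 or 2MWT-L stage 3 replicates 1 and 2 or *2mlpa* stage 3 replicate 3 (1.08 to 1.13) and Glyma.08G171400 at emergence in *1mlpa* without 1MWT stage 3 replicates 1 and 2 (1.28 to 1.46). This was also so for Glyma.08G171400 at emergence in *3mlpa* in all but 6 of 18 fits (0.93 to 1.31 over all fits).

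The gene with the highest smallest ratio at 8 h, Glyma.13G275800, was nearly absent from dry seeds, where it was at 0 in 16 of 24 libraries and at most 0.23 CPM in any. At 8 h it was at 4.77, 11.1 and 18.2 CPM in *1mlpa* and 2.54, 6.87 and 2.07 in 1MWT, at 24.5, 9.73 and 21.9 in *3mlpa* and 5.04, 4.8 and 4.29 in 3MWT, and at 17.1, 20.9 and 24.8 in *2mlpa* and 14.04, 8.38 and 14.4 in 2MWT. The *1mlpa* and 1MWT libraries overlapped. At emergence it was above 0 in all 24 libraries, at 0.12 to 8.93 CPM, and was called in *1mlpa*, at 8.93, 8.62 and 6.37 against 0.68, 1.21 and 0.69, 3.25 ± 0.50 (SE, FDR = 0.000287). Glyma.07G212400 and Glyma.20G155100 were likewise at or near 0 in dry seeds, at most 1.30 and 1.04 CPM. Glyma.20G155100 was called in *1mlpa* in dry seeds (FDR = 0.00441) and at emergence (1.99 ± 0.42 SE, FDR = 0.00353). For these 3 genes the fold changes in dry seeds rest on few counts and are not given. Without 1 library in turn, these calls were lost: Glyma.20G155100 in dry seeds in *1mlpa* without 1MWT stage 1 replicates 1 and 3 or *1mlpa* stage 1 replicate 2 and Glyma.20G155100 at emergence in *1mlpa* without 1MWT stage 3 replicates 1, 2 and 3 or *1mlpa* stage 3 replicate 2 (1.51 to 2.01).

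Glyma.18G284900 and Glyma.18G285100 lie 6729 bases apart on chromosome 18 with 1 gene between them, on the Wm82.a2.v1 assembly. At 8 h they stood at 172, 188 and 181 and 145, 199.7 and 177 CPM in *1mlpa*, 254, 165 and 196 and 199, 126 and 156 in *3mlpa*, and 218, 160.1 and 174 and 232, 132 and 166 in *2mlpa*. Both were called in *1mlpa* in dry seeds (1.66 ± 0.31 SE, FDR = 0.000941 and 1.71 ± 0.25 SE, FDR = 0.000119) and at emergence (1.78 ± 0.33 SE, FDR = 0.00122 and 2.05 ± 0.27 SE, FDR = 7.05e-05). At emergence their fold changes against the mean of the normal MRP lines were 2.32 ± 0.37 (SE, FDR = 0.000154) and 2.81 ± 0.41 (SE, FDR = 6.28e-05), with 1 *2mlpa* library at 43.1 and 59.7 CPM and the other 2 at 10.3 to 13.3. If the 2 are close copies, reads shared between them were not counted. Glyma.06G260200, a gene without annotation, was more even. At emergence it was at 262, 282 and 204 CPM in *2mlpa* against 88.5 to 153 in its normal lines, 1.10 ± 0.14 (SE, FDR = 5.96e-06) against their mean. This is not a call in all 3 comparisons, with 0.84 ± 0.18 (SE, FDR = 0.00562) against 2MWT. In *3mlpa* it was called at emergence, at 406, 349 and 506 CPM against 135, 146 and 125, 1.76 ± 0.22 (SE, FDR = 4.98e-05). The calls that did not hold without single libraries were Glyma.18G284900 at emergence in *1mlpa* without 1MWT stage 3 replicate 2 or *1mlpa* stage 3 replicate 2 (1.39 to 1.77).

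Of the 60 genes, 10 lie on chromosome 13 (16.7%, against 6.66% of all genes) and 8 on chromosome 18 (13.3% against 5.39%). The 8 genes on the chromosomes of the mutated genes lay at distances of 35331 bases to 27.2 Mb. Glyma.03G167200 lies 35331 bases from MRP-N, Glyma.03G183500 lies 1.33 Mb from it, and Glyma.19G190000 and Glyma.19G197100 lie 1.80 and 2.46 Mb from MRP-L.

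In dry seeds the 2 genes near MRP-N were high in 2MWT-N, a line with a normal phytic acid level, as well as in *2mlpa*. Glyma.03G183500 is a homologue of CSLA9, which makes mannan of the cell wall. In dry seeds it stood at 68.95, 38.1 and 61.2 CPM in *2mlpa* and 96.8, 69.6 and 69.1 in 2MWT-N, but at 2.78, 3.64 and 4.95 in 2MWT and 2.7, 3.26 and 3.31 in 2MWT-L. 2MWT-N has a normal phytic acid level, so the high level was not particular to *lpa* seeds. Its call against 2MWT was 4.09 ± 0.43 (SE, FDR = 2.87e-07) in dry seeds and 4.51 ± 0.52 (SE, FDR = 2.1e-06) at emergence, and at 8 h 2MWT-N held 21.97 and 30.9 CPM and *2mlpa* 33.02, 24.9 and 26.5. In *3mlpa* dry seeds held 26.03, 21.4 and 10.9 against 3.63, 2.54 and 1.6 in 3MWT, 3.22 ± 0.37 (SE, FDR = 4.12e-05). Glyma.03G167200, homologous to AT4G17940 of unknown role, was at 303, 297 and 356 CPM in *2mlpa* and 321, 356 and 332 in 2MWT-N in dry seeds, against 109, 133 and 128 in 2MWT and 151, 164 and 164 in 2MWT-L. Its fold change in 2MWT-N against 2MWT was 1.19 ± 0.24 (SE, FDR = 0.00345). At 8 h its mean was 105 TPM in *2mlpa*, 60.2 in 2MWT-N, 31.3 in 2MWT and 30.3 in 2MWT-L. At emergence *2mlpa* held 55.8, 93.8 and 107 CPM and overlapped the 29.1 to 63.8 of its normal lines. There 2MWT-N was not called against 2MWT (0.17 ± 0.24 SE, FDR = 0.889). Dry seeds of 1MWT, which carries none of the mutations, held 286 to 361 CPM of it. By the labels 2MWT-N has normal MRP-N and 2MWT-L mutated mrp-n. In dry seeds both genes were thus high in the line with the normal MRP-N and lower in the line with the mutated one. Glyma.03G167200 lies 35331 bases from MRP-N, but Glyma.03G183500 lies 1.33 Mb away. The lines with a high dry seed level of Glyma.03G183500 are *2mlpa*, 2MWT-N and *3mlpa*, which share mrp-l by their labels, on chromosome 19. Effects of mrp-l, other inherited differences and the naming of these 2 lines cannot be told apart. With each library dropped in turn the lost calls were Glyma.03G183500 at emergence in *3mlpa* without 3MWT stage 3 replicates 1 and 2 or *3mlpa* stage 3 replicate 3 (1.75 to 2.10).

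The lines with a single mrp mutation ask whether 1 mutation without the *lpa* trait moves the genes. The comparisons of 2MWT-L and 2MWT-N share the libraries of 2MWT. In dry seeds 0 of the 60 genes were called in 2MWT-L, with 4 higher and 5 lower at an unadjusted p under 0.05 and 0 called by DESeq2, where 0.174% of genes were higher and 0.361% lower. In 2MWT-N 2 were called higher and 1 lower, where 0.662% of genes were called in each direction. At emergence 2MWT-L had 0 higher and 2 lower (0.095% and 0.374% of genes), and 2MWT-N had 1 higher and 0 lower (0.076% and 0.124%). These few genes are named after their values were seen. In dry seeds of 2MWT-N Glyma.03G183500 (log2 fold change of 4.09 ± 0.43 SE, FDR = 2.87e-07) and Glyma.03G167200 (1.19 ± 0.24 SE, FDR = 0.00345) were higher and Glyma.08G171400 was lower (-1.22 ± 0.21 SE, FDR = 0.000694). At emergence Glyma.03G183500 was again higher in 2MWT-N (4.51 ± 0.52 SE, FDR = 2.1e-06), and Glyma.10G022300 (-3.06 ± 0.62 SE, FDR = 0.00737) and Glyma.17G053700 (-1.95 ± 0.40 SE, FDR = 0.00737) were lower in 2MWT-L. The median log2 fold change was 0.03 and -0.33 in dry seeds and -0.87 and -0.32 at emergence in 2MWT-L and 2MWT-N. Over all tested genes it was -0.021 and 0.032 in dry seeds and 0.023 and -0.025 at emergence. At emergence 26 genes were lower in 2MWT-L at an unadjusted p under 0.05, none higher. The share of all tested genes that did so is not given here, so this count cannot be set against a background. The count of 2 in 2MWT-L at emergence was 0 to 8 with single libraries left out, 8 without 2MWT stage 3 replicate 1 and 0 without 2MWT stage 3 replicate 2.

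Whether the effect of a subset changed between dry seeds and emergence was tested as an interaction, at an FDR under 0.01. In the Mips subset it differed for 3 genes (2.51% of all genes), in the Mips-MRP subset for 7 (1.13%) and in the MRP subset for 1 (0.691%), and was larger at emergence in each of them. The 3 were Glyma.10G022300 (3.92 ± 0.79 SE, FDR = 0.00553), Glyma.13G095300 (2.83 ± 0.45 SE, FDR = 0.00119) and Glyma.18G265100 (2.13 ± 0.38 SE, FDR = 0.0023). The last was at 131, 101 and 209.7 CPM in *1mlpa* at emergence against 31.01, 28.2 and 29.9 in 1MWT, and at 30.4, 32.04 and 52.2 against 26.4, 39.2 and 50.2 in dry seeds. In the Mips-MRP subset they were Glyma.13G095300 (3.70 ± 0.65 SE, FDR = 0.00365), Glyma.08G005300 (3.41 ± 0.56 SE, FDR = 0.0023), Glyma.05G224400 (3.33 ± 0.43 SE, FDR = 0.000432) and Glyma.08G211100 (3.06 ± 0.48 SE, FDR = 0.00144), with Glyma.13G092500, Glyma.17G127900 and Glyma.14G156300 between 2.29 and 2.59. The gene of the MRP subset was Glyma.06G171100 (1.85 ± 0.30 SE, FDR = 0.00149), at 52.6, 55.7 and 86.7 CPM in *2mlpa* dry seeds, with the first 2 below the 70.8 to 144 of its normal lines, and 7.59, 8.16 and 6.34 at emergence, above their 2.36 to 5.37. The count in the Mips-MRP subset was 13 without *3mlpa* stage 1 replicate 2 and 4 without 3MWT stage 3 replicate 2, and that in the MRP subset 3 without *2mlpa* stage 1 replicate 3. For most of the 60 genes a change of the effect between stages was not detected.

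The effects of the Mips and Mips-MRP subsets were set against each other in a joint fit of 36 libraries. In dry seeds they differed for 7 genes, where 5.31% of all genes did. The effect was larger in *1mlpa* for Glyma.13G247000 (3.22 ± 0.73 SE, FDR = 0.0038), Glyma.13G092500 (1.82 ± 0.45 SE, FDR = 0.00725), Glyma.18G242400 (1.49 ± 0.34 SE, FDR = 0.00385) and Glyma.04G012300 (1.30 ± 0.34 SE, FDR = 0.00992). It was larger in *3mlpa* for Glyma.02G093200 (-4.29 ± 0.82 SE, FDR = 0.00084), Glyma.08G142400 (-3.42 ± 0.76 SE, FDR = 0.00315) and Glyma.03G183500 (-2.23 ± 0.49 SE, FDR = 0.00309), the first 2 of which were low in 3MWT. At emergence 0 genes differed by edgeR, where 0.266% of all genes did, 7 and 10 were larger in *1mlpa* and *3mlpa* at an unadjusted p under 0.05, and DESeq2 called 4.

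Of the genes not yet described, Glyma.17G072200 was called in dry seeds in *1mlpa* (3.62 ± 0.30 SE, FDR = 5.89e-07) and *3mlpa* (1.91 ± 0.36 SE, FDR = 0.00269) and at emergence in *1mlpa* (2.01 ± 0.33 SE, FDR = 0.000486). Its dry seed levels were 31.6, 42.1 and 46.03 CPM in *1mlpa* and 4.16, 4.3 and 2.6 in 1MWT. Glyma.15G013300 was called in *1mlpa* in dry seeds (2.65 ± 0.38 SE, FDR = 7.84e-05) and at emergence (2.29 ± 0.37 SE, FDR = 0.000473), and in *3mlpa* at emergence (2.10 ± 0.44 SE, FDR = 0.00525). Glyma.20G008400 was called in *1mlpa* at both stages (2.32 ± 0.38 SE, FDR = 0.000243 and 2.00 ± 0.38 SE, FDR = 0.0015), and its fold changes in *2mlpa* against the mean of the normal lines were below 0 (-0.47 ± 0.34 SE, FDR = 0.347 and -0.45 ± 0.34 SE, FDR = 0.461). Glyma.18G050600 (1.63 ± 0.27 SE, FDR = 0.000569) and Glyma.17G105000 (3.07 ± 0.54 SE, FDR = 0.000835) were called in *1mlpa* at emergence alone, Glyma.13G194400 in *3mlpa* at emergence alone (2.08 ± 0.33 SE, FDR = 0.000497) and Glyma.14G066000 in *3mlpa* in dry seeds alone (1.49 ± 0.33 SE, FDR = 0.00732). Glyma.08G316700 was called at emergence in *1mlpa* (1.42 ± 0.20 SE, FDR = 0.000149) and *3mlpa* (1.10 ± 0.24 SE, FDR = 0.00643). Glyma.19G197100 was called in *1mlpa* (3.62 ± 0.54 SE, FDR = 0.000117) and *3mlpa* (2.12 ± 0.43 SE, FDR = 0.00428) in dry seeds and in *3mlpa* at emergence (3.81 ± 0.45 SE, FDR = 2.07e-05). Glyma.08G211100 (1.80 ± 0.37 SE, FDR = 0.00279 and 3.69 ± 0.37 SE, FDR = 3.82e-06) and Glyma.14G156300 (2.22 ± 0.38 SE, FDR = 0.000692 and 2.69 ± 0.26 SE, FDR = 2.91e-06) were called at emergence in *1mlpa* and *3mlpa*. None of these genes is annotated. Of these calls, leaving out 1 library ended Glyma.17G072200 in dry seeds in *3mlpa* without 3MWT stage 1 replicate 1 or *3mlpa* stage 1 replicate 1 (1.59 to 1.67), Glyma.15G013300 at emergence in *3mlpa* without 3MWT stage 3 replicates 1, 2 and 3 or *3mlpa* stage 3 replicates 2 and 3 (1.97 to 2.24) and Glyma.20G008400 at emergence in *1mlpa* without 1MWT stage 3 replicates 1 and 2 or *1mlpa* stage 3 replicate 3 (1.78 to 2.01). Others were Glyma.17G105000 at emergence in *1mlpa* without *1mlpa* stage 3 replicate 3 (2.38), Glyma.14G066000 in dry seeds in *3mlpa* in all but 8 of 18 fits (1.31 to 1.69 over all fits) and Glyma.08G316700 at emergence in *3mlpa* in all but 8 of 18 fits (0.80 to 1.26 over all fits). Lost too were Glyma.19G197100 in dry seeds in *3mlpa* without 3MWT stage 1 replicate 1 or *3mlpa* stage 1 replicate 1 (2.10 to 2.19) and Glyma.08G211100 at emergence in *1mlpa* without 1MWT stage 3 replicates 1 and 2 or *1mlpa* stage 3 replicate 2 (1.29 to 1.78).

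The 9 genes with no call in dry seeds or at emergence were Glyma.06G202200, Glyma.07G212400, Glyma.18G013800, Glyma.06G171100, Glyma.20G233000, Glyma.13G034200, Glyma.06G125700, Glyma.11G082100 and Glyma.03G167200. Glyma.20G233000, the gene with the highest TPM above, was at 1353, 1069 and 1247 CPM in *1mlpa* at 8 h and 846, 598 and 438 in 1MWT, and its fold change at emergence of 1.26 ± 0.54 (SE, FDR = 0.15) did not pass, with 1MWT at 7.34, 6.52 and 50.6. Glyma.13G034200 missed the thresholds with fold changes of 1.15 ± 0.29 (SE, FDR = 0.0156) and 1.12 ± 0.31 (SE, FDR = 0.031) in *3mlpa*. Glyma.06G202200 differed from the mean of the normal MRP lines at emergence by 2.19 ± 0.38 (SE, FDR = 0.000434), which is not a call in all 3 comparisons. Glyma.06G125700 and Glyma.11G082100 differed in dry seeds of *1mlpa* by 0.99 ± 0.35 (SE, FDR = 0.0486) and 1.34 ± 1.19 (SE, FDR = 0.45).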

How the data were processed

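Soybean seed RNA of 72 libraries was sequenced. Reads were trimmed, aligned with STAR 2.5.2b to the Wm82.a2.v1 assembly and counted per gene by the authors, who deposited raw counts in 2 tables of 56044 genes (DESeq2 1.22.2 and R 3.5.1 served their own comparisons). Strand was not used, and reads matching several places or genes were not counted, which lowers near copies. All 72 columns were matched to the labels. Counts were divided by the library total to give CPM. Tests were made on the counts with edgeR 4.0.16 under R 4.3.3, using TMM factors and its two-sided quasi-likelihood test (limma 3.58.1 was loaded with it). One fit per subset held all its stages, for genes with a mean normalized count over 10, which all 60 genes passed, a rare one possibly through the group where it was high. A joint fit held the Mips and Mips-MRP subsets. Values are log2 fold changes with standard errors and FDR by Benjamini-Hochberg over all tested genes, so they differ from ratios of the printed CPM, and a call needed an FDR under 0.01 and a log2 fold change over 1 in size. In the MRP subset all 3 comparisons had to pass. Interactions needed the FDR alone. DESeq2 1.42.0 was an alternative. Counts at an unadjusted p under 0.05, from DESeq2, from the compared libraries fitted alone or with a library left out are given without the share over all genes. The fit of the Mips subset was tested on simulated counts, with the same spread for every gene and known changes in *1mlpa* at emergence. The call of the MRP subset, the joint fit and the changes between stages within a line were not tested in this way.

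The library of 2MWT-N stage 2 replicate 1 was left out, and no value was imputed. Replicates were biological, so p-values measure the spread between seed samples of 1 line. Replicate numbers did not pair the samples across the comparisons. Named genes were the first 12 by the rule at 8 h, 15 of the 33 called in at least 2 subsets, by the smaller of their fold changes, and any called lower in a subset (none was), with other genes named after their values were seen. The 60 genes, the LEA and storage protein lists and the tests were chosen with earlier results of these data known. Homologue identifiers, families and some names came from the study's supplementary annotation. Other gene names and the roles are those known for the Arabidopsis homologues. The gene table of the reference used another assembly and other identifiers, of which 0 matched. Family lists, markers of root, seed coat and greening, promoter motifs and sequences were therefore not analysed here. The alternatives were an FDR of 0.05, DESeq2, RLE size factors, no filter, a replicate block, a fit of the compared libraries alone, the near-empty library kept, the mean of the normal lines, and each library left out in turn. Alternatives for the interactions and the ranking of stages with TMM-scaled CPM were chosen after seeing the data.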

Additional observations from a re-analysis of the deposited data

Results flagged for a closer look

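Differences between effects that passed an interaction test at an FDR under 0.01 are collected here, with no explanation weighed. Between dry seeds and emergence, the effect of *1mlpa* against 1MWT was larger at emergence for Glyma.10G022300 by 3.92 on the log2 scale, for Glyma.13G095300 by 2.83 and for Glyma.18G265100 by 2.13. The effect of *3mlpa* against 3MWT was larger at emergence for Glyma.13G095300 by 3.7, for Glyma.08G005300 by 3.41, for Glyma.05G224400 by 3.33 and for Glyma.08G211100 by 3.06. It was also larger by 2.59 for Glyma.13G092500 and Glyma.17G127900 and by 2.29 for Glyma.14G156300. The effect of *2mlpa* against the mean of its normal lines was larger at emergence by 1.85 for Glyma.06G171100.

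In dry seeds, the effect in the Mips subset minus that in the Mips-MRP subset was 3.22 for Glyma.13G247000, 1.82 for Glyma.13G092500, 1.49 for Glyma.18G242400 and 1.3 for Glyma.04G012300. It was -4.29 for Glyma.02G093200, -3.42 for Glyma.08G142400 and -2.23 for Glyma.03G183500. For the first of these 3, the 3 libraries of 3MWT held 0.18 to 2.68 CPM in dry seeds.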

How the results depend on the processing

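None of the 121 called fold changes of single genes that were recomputed reversed. With an FDR threshold of 0.05, 25 genes instead of 15 were called higher in *3mlpa* dry seeds, 5 in *2mlpa* dry seeds, 3 in *2mlpa* at emergence and 9 in 2MWT-L at emergence. With the compared libraries fitted alone, the counts were 0 for *3mlpa* dry seeds, 3 for *2mlpa* dry seeds, 0 for *2mlpa* at emergence, 0 for 2MWT-L and 0 for 2MWT-N at emergence, in fits with fewer samples. DESeq2 gave 2 in *2mlpa* dry seeds and 5 in 2MWT-L at emergence, and interactions between stages for 6, 12 and 3 genes in *1mlpa*, *3mlpa* and *2mlpa* and between subsets at emergence for 4. Without the filter on low counts 3 and 2 genes were called in *2mlpa* in dry seeds and at emergence, 7 in 2MWT-L at emergence, and interactions for 4 in *2mlpa* and 1 between subsets at emergence. RLE size factors gave 2 interactions in *2mlpa*. Against the mean of the normal lines *2mlpa* had 9 and 18. The cause of these changes was not tested.

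Replicate numbers did not pair the samples across the comparisons (correlations of the deviations of -0.32 to 0.322, 14 of 44 over 0.1), although for *2mlpa* with 2MWT at emergence, 1 of 15 combinations of lines and stage, all 3 were over 0.1 (0.156 to 0.322). With the block 6 genes instead of 5 were called higher there. With the replicate number as a block, 29 and 38 genes were called in *1mlpa*, 12 and 37 in *3mlpa*, 1 in *2mlpa* dry seeds, and 1 instead of 2 in 2MWT-L at emergence. With single libraries left out, the counts were 21 to 30 and 21 to 41 in *1mlpa*, 9 to 27 and 23 to 42 in *3mlpa*, and 0 to 3 and 0 to 2 in *2mlpa*. Falls to emergence numbered 49 to 50 in 1MWT, 45 to 47 in 3MWT and 42 to 48 in 2MWT. Genes called against 2MWT in dry seeds and at emergence numbered 0 to 0 and 0 to 8 in 2MWT-L and 2 to 3 and 1 to 1 in 2MWT-N. Interactions between stages numbered 2 to 5 in *1mlpa*, 4 to 13 in *3mlpa* and 1 to 3 in *2mlpa*, with 5 in *1mlpa* without 1MWT stage 1 replicate 1. Of the 60 genes 35 stayed in the list with 0.1 CPM added instead of 1, 45 with 5 CPM, 44 against the highest normal line, 51 with TMM factors and 52 with the near-empty library kept. Over the recomputed values of these 121 calls, 2527 kept their direction and side of the threshold and 290 lost the call. Ranked with TMM-scaled CPM, 42 genes instead of 30 were highest in dry seeds and 4 instead of 10 at 8 h. Depth limits the rare genes, since those near 0.1 CPM rest on a few reads.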
